A study of Mus musculus with 14 samples.

Results

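The heat shock genes described here are 10 members of the chaperone system and its regulator. They were chosen by name: Hspa1a, Hspa1b, Hspa1l, Hspa8, Hspa5, Hsp90aa1, Hsp90ab1, Hspb1, Hsph1 and Hsf1. All 10 were found among the 21938 protein-coding genes of the mouse annotation. The question was where H3K4me3 lay at their promoters, which neighbours shared the mark, which putative enhancers lay nearby, and whether heat-inducible and constitutive members differed.

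H3K4me3, the trimethylated form of lysine 4 on histone H3, was profiled by ChIP-seq in iMEF cells, that is, in immortalised mouse embryo fibroblasts. In these cells exon 4 of both endogenous Ash2l alleles had been deleted by a Cre-ER recombinase, and a lentiviral FKBP-HA2-ASH2L fusion, with human ASH2L, took its place. ASH2L is a core subunit of the enzymes that methylate H3K4, and the compound dTAG directs the fusion protein to degradation. All 14 libraries carried this background: 2 replicates each were untreated or treated with dTAG for 30 min, 2 h, 4 h, 8 h or 16 h, and 1 input library came from untreated cells and 1 from treated cells. Per the study the cells were of clone NG3, so the libraries describe a single clone. The data are a list of 25431 peaks found across all H3K4me3 libraries and a list of 32965 putative enhancers of control cells. Both lists hold positions only. The peak list pools untreated and treated libraries. A listed width or stretch without a peak therefore need not be that of untreated cells. No depth, height or value per sample is known here, so no value below has a replicate error, no difference was tested, and time points were not compared. Of 10 genes typical of fibroblasts, among them Col1a1, Pdgfrb and Vim, all had a promoter peak, as did Ash2l itself. None of 5 blood genes had one. Of 5 epithelial genes, Epcam and Cdh1 had one.

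Heat shock proteins are chaperones that keep other proteins folded. Members of the HSP70 and HSP90 families work with cochaperones, while small heat shock proteins such as HSPB1 hold unfolded proteins in a soluble state. On heat or other protein damage the transcription factor HSF1 binds heat shock elements in the promoters of the inducible genes, whose RNA polymerase is known to wait just after the start. H3K4me3 typically sits on the nucleosomes around starts of genes that are active or ready for activation, and the start itself often lies in a stretch free of nucleosomes.

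The members were sorted by what is generally known of them. Hspa1a and Hspa1b encode the stress-inducible cytosolic HSP70, Hspb1 encodes the small chaperone HSPB1, Hsph1 encodes an HSP110 that exchanges nucleotides on HSP70, and Hsp90aa1 encodes the inducible HSP90 alpha. These 5 were the heat-inducible class. Hspa8 encodes the constitutive HSC70, Hsp90ab1 the constitutive HSP90 beta, Hspa5 the endoplasmic reticulum chaperone BiP, and Hsf1 the heat shock factor. These 4 were the constitutive class, although Hspa5 is inducible by stress of the endoplasmic reticulum. Hspa1l, an HSP70 gene of the testis, was in neither class.

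The promoter sequences that carry the known control elements are shown first. RefSeq promoters, from 250 bases before to 50 after a start on build GRCm38.p6, were at hand for 6 of the 10 members, namely Hspa1a, Hspa1b, Hspa1l, Hspa5, Hspb1 and Hsph1. A heat shock element was searched as GAANNTTC or TTCNNGAA on both strands, that is, as a pair of inverted units. The 250 bases before the start of the 3 members below are printed 5′ to 3′ on the strand of the gene, with the matches in capitals. Hspa1a lies at chr17:34972157-34972406 on the minus strand, Hspa1b at chr17:34959239-34959488 on the minus strand, and Hspb1 at chr5:135887669-135887918 on the plus strand.
Hspa1a: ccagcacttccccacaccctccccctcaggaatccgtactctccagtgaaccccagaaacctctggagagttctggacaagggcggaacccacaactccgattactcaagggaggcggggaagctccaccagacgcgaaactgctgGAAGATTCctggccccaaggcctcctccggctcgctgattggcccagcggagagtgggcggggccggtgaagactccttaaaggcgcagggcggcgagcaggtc
Hspa1b: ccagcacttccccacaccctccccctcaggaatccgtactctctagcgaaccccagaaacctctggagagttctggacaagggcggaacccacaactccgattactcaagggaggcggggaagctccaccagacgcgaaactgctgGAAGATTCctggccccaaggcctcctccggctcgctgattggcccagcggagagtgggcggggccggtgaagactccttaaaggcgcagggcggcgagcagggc
Hspb1: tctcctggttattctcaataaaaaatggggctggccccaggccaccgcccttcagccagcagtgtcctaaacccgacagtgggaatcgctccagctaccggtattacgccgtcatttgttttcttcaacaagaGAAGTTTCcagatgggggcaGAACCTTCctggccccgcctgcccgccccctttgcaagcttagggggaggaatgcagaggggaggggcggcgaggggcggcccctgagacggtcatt
Hspa1a and Hspa1b carried the same match, GAAGATTC, from -104 to -97. Their 250 bases differed at 3 positions, C44T, T47C and T249G, written as the base of Hspa1a, the position from the 5′ end and the base of Hspa1b. Hspb1 carried 2 matches, GAAGTTTC from -117 to -110 and GAACCTTC from -97 to -90.

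For Hsph1 and Hspa5 only short sites are shown, since some or all of their bases are transcribed from annotated starts. The second site of Hsph1 lies after the start, with its matches from 38 to 50 bp past the reference start. The element of Hspa5 lies from -65 to -47 relative to the RefSeq start, but from 55 to 73 bp past the reference start of GENCODE. Hsph1 held a site at chr5:149636351-149636380 and a second at chr5:149636287-149636316, both on the minus strand, with heat shock element matches in capitals. For Hspa5 the capitals mark an endoplasmic reticulum stress element, searched as CCAAT, any 9 bases, then CCACG. The site lies at chr2:34772019-34772048 on the plus strand.
Hsph1, first site: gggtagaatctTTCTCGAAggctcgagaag
Hsph1, second site: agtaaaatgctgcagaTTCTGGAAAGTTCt
Hspa5: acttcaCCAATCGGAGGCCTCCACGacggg
The second site of Hsph1 held 3 units in a row, TTCTGGAAAGTTC, in which 2 of the paired matches overlapped by 3 bases.

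Matches were then counted over the 6 members with a promoter. A heat shock element of 2 units was present in 4 of 6, all of them heat-inducible (Hspa1a, Hspa1b, Hspb1 and Hsph1), while 15.1% of the 32851 RefSeq promoters held it. Of the constitutive members only Hspa5 had a promoter at hand, and the classes were not compared in this respect. The form with 3 units was present in Hsph1 only, and in 0.603% of all promoters. The endoplasmic reticulum stress element was present in Hspa5 only, and in 0.119% of all promoters. CCAAT was present in 5 of 6, with Hspb1 the exception, against 37.4% of all promoters. GGGCGG, the core of sites for SP1, was present in 6 of 6 against 35.7%, and TATAAA in 0 of 6 against 13.6%. The last count covers those 6 letters only, and says nothing about other forms of a TATA box. These matches are descriptions of letters. No factor binding was measured.

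All 10 heat shock genes had a promoter peak, meaning a peak with at least 1 base within 1 kb of any of their transcript starts. Of all protein-coding genes, 59.1% had one. The members had 23 different peaks, between 2 and 4 each. All 10 had 2 or more, while 40.3% of the 12966 protein-coding genes with a peak did. Members had up to 13 annotated starts (Hsf1), and a gene with many starts can collect more peaks. Hspa1a, Hspa1b and Hspa1l, with 1 start each, had 2 peaks each.

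**Figure D1:**
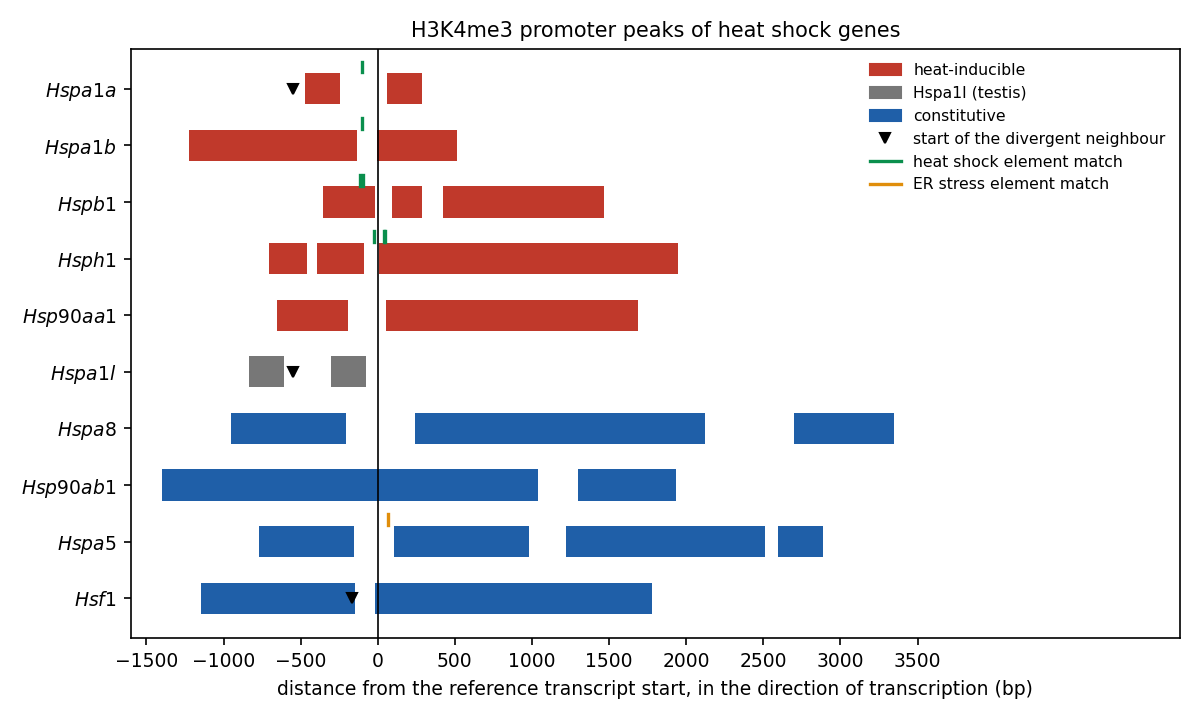
H3K4me3 promoter peaks of the 10 heat shock genes, drawn as bars by their distance in bp from 1 reference transcript start per gene (vertical line at 0, transcription to the right). Green and orange ticks mark matches to the heat shock and endoplasmic reticulum stress elements in the 6 members with a RefSeq promoter, and triangles mark starts of divergent neighbours. The start lies between a peak on its left and a peak on its right in 6 of the 10 members.

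At most members the start lay in a short stretch without a peak, with a peak on each side. For each gene the start of 1 reference transcript of GENCODE was used. It lay between 2 promoter peaks, each within 1 kb, in 6 of 10 members, namely Hspa1a, Hspb1, Hsph1, Hsp90aa1, Hspa8 and Hspa5. Among protein-coding genes with a peak the share was 8.6%. Only a gene with at least 2 promoter peaks can qualify. All 10 members had these, while 5231 of the 12966 genes did, and the 1115 genes that qualified are among the 5231. The shares under the other rules below likewise include genes with 1 peak. The count depends on which start is used. At Hspa8 the RefSeq start lay 49 bp inside the downstream peak, and at Hspa5 it lay 12 bp inside. With at least 1 RefSeq start between peaks as the rule, 5 of 10 members qualified (Hspa1a, Hspb1, Hsph1, Hsp90aa1 and Hsf1), against 13.5% of genes. Allowing the reference start to lie within 50 bp of the stretch gave 8 of 10 members, against 18.6%. The exceptions under this rule were Hsp90ab1 and Hspa1l.

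The stretch between the peaks was 305 bp long at Hspa1a, from -244 to 60 bp relative to the start. It was 450 bp at Hspa8, 263 bp at Hspa5, 245 bp at Hsp90aa1, 108 bp at Hspb1 and 96 bp at Hsph1. The median over the 1115 genes with such a stretch was 170 bp, with quartiles of 118 and 250 bp, so the stretches of Hspa8, Hspa1a and Hspa5 were above the upper quartile and those of Hspb1 and Hsph1 below the lower. In the stretch of Hspa1a, sequence that occurs elsewhere covered the bases from -203 to -3 and from 26 to 60, as given below. At Hspa1b the stretch was 130 bp long and ended 5 bp before the start, so the start itself lay in the downstream peak. At Hsf1 it was 129 bp long and ended 22 bp before the start. In contrast, 1 peak of 2440 bp ran across the start of Hsp90ab1, from -1401 to 1038 bp relative to it.

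The control elements shown above fell on both sides of the peak borders. Of 8 matches to the paired heat shock element or the endoplasmic reticulum stress element, 4 lay between 2 peaks and 4 inside a peak. The matches at Hspa1a and Hspa1b, the first site of Hsph1 and the element of Hspa5 lay between peaks. Those at Hspa1a and Hspa1b were 141 bp and 31 bp from the nearer peak, that of Hsph1 31 bp and that of Hspa5 35 bp. Both matches of Hspb1 lay inside its upstream peak of 334 bp, and both overlapping matches of the second site of Hsph1 lay inside the downstream peak of 1943 bp.

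Hspa1a and Hspa1l, a divergent pair of HSP70 genes on chromosome 17, had the narrowest widest peak of all members. Hspa1a (chr17:34969190-34972156, minus strand) had a peak of 228 bp at chr17:34971868-34972095, wholly within its exon and with 25.4% of its bases in coding sequence. Its other peak of 225 bp lay upstream at chr17:34972401-34972625, outside the gene. Only 0.833% of the protein-coding genes with a peak had a widest peak narrower than 228 bp. Both widths were near the lower limit of the list, 200 bp, a width that 1394 peaks had. Both peaks were shared with Hspa1l (chr17:34972703-34979285, plus strand), whose start lies 547 bp away on the other strand.

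Hspa1l thus had no peak of its own. Both shared peaks lay before its start, the nearer ending 78 bp before it, and 0 bases of the 1 kb after its start were under a peak. Hspa1b (chr17:34956436-34959238, minus strand) had peaks of 518 bp and 1092 bp, at chr17:34958725-34959242 and chr17:34959373-34960464. The wider peak of Hspa1b lay before the start, and it was broader than 38.2% of the widest peaks of all genes. Although their promoters differed at only 3 of 250 bases, Hspa1b had 1610 bp under promoter peaks and Hspa1a had 453 bp.

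Hspa1a and Hspa1b are nearly identical near their starts, and a read that fits several places cannot be placed with certainty. Words of 75 bases, the number of sequencing cycles in the study's methods, were therefore looked up on both strands of the 21 chromosomes. Each word was counted at its lowest coordinate, which at these minus-strand genes is its downstream end. Within 1 kb on either side of the start, 43.8% of the 2001 words of Hspa1a and likewise of Hspa1b occurred elsewhere. After the start the share was 75% of 1000 words at each gene, and before it 12.7%. Repeated words covered the bases from -203 to -3 relative to the start at both genes. Of the words in the stretch between peaks, 41.6% were repeated at Hspa1a and 96.2% at Hspa1b. Of those in the downstream peaks, 49.6% and 51.2% were. By bases, repeated words covered the stretch of Hspa1a from -203 to -3 and from 26 to 60, and that of Hspa1b wholly. Counted by bases, 226 of the 228 bp of the downstream peak of Hspa1a lay in repeated words, and 487 of the 518 bp of that of Hspa1b. Of the upstream peaks, 0 of 225 bp did at Hspa1a and 69 of 1092 bp at Hspa1b. When the other sequences of the reference assembly were searched too, which hold an alternate strain form of this locus, every word within 1 kb of the starts of Hspa1a, Hspa1b and Hspa1l was repeated. Whether the authors aligned to such sequences is not given in the sources used here, and the part of repeated sequence in these peaks was not tested.

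**Figure D2:**
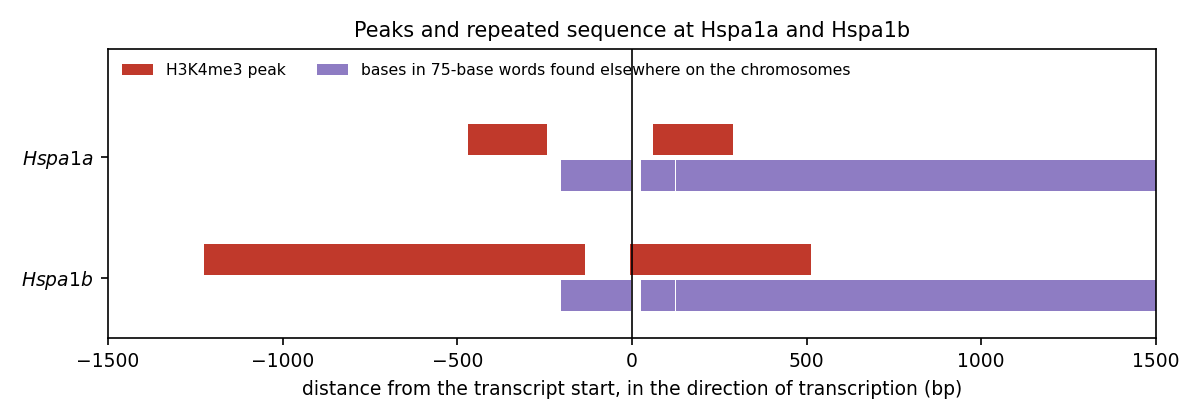
Peaks (red) and bases within 75-base words that occur elsewhere on the 21 chromosomes (violet) around the starts of Hspa1a and Hspa1b, by distance from the start in bp. Repeated bases lie in the same places at both genes, from -203 to -3 bp and over most of the transcribed part, while the upstream peaks of 225 and 1092 bp lie mostly outside them.

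The shares around the other starts were lower. Around the starts of Hspa5, Hsp90ab1 and Hsf1, 0 of 2001 words were repeated. The share was 2.40% at Hspa8, 1.40% at Hsp90aa1, 1.10% at Hsph1 and 16.9% at Hspb1. At Hspb1 the repeats lay after the start, where 72.0% of words in its peak of 200 bp were repeated. In the peaks within the body of Hspa8 the shares were 20.8% and 30.4%, and in the widest peak of Hsp90aa1 the share was 16.3%. No word was repeated in the stretches without a peak at Hspa8, Hspa5, Hsp90aa1, Hspb1, Hsph1 and Hsf1.

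The remaining heat-inducible members had their widest peak after the start. Hspb1 (chr5:135887919-135889563, plus strand) had peaks of 334, 200 and 1042 bp. The widest, at chr5:135888344-135889385, lay within the gene, with 58.9% of its bases in introns. Hsph1 (chr5:149614287-149636376, minus strand) had 1 peak of 1943 bp after the start, with 81.4% of its bases in introns, and peaks of 306 and 245 bp before it. Hsp90aa1 (chr12:110690605-110702728, minus strand) had a peak of 1636 bp after the reference start and of 459 bp before it. These lay at the start of the shorter transcripts. The longest transcript of Hsp90aa1 begins farther upstream, and with that start alone the gene had no promoter peak.

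Of the constitutive members, Hspa8, Hsf1 and Hsp90ab1 had a widest peak above that of 80.7%, 78.0% and 92.3% of genes, and Hspa5 above that of 52.3%. Hspa8 (chr9:40800984-40810087, plus strand) had peaks of 743, 1879 and 645 bp, of which the last 2 lay within the gene. With exons of any annotated transcript counted, the widest was 96.8% exonic, and 37.0% of its bases lay in coding sequence. Hspa5 (chr2:34771970-34777547, plus strand) had 4 peaks, of 616, 870, 1291 and 292 bp, in a row from -771 to 2886 bp relative to the reference start. Hsp90ab1 (chr17:45567775-45573271, minus strand) had peaks of 2440 bp and 635 bp. Hsf1 (chr15:76477422-76501913, plus strand) had a peak of 1797 bp over its first bases and a peak of 997 bp before them.

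**Figure D3:**
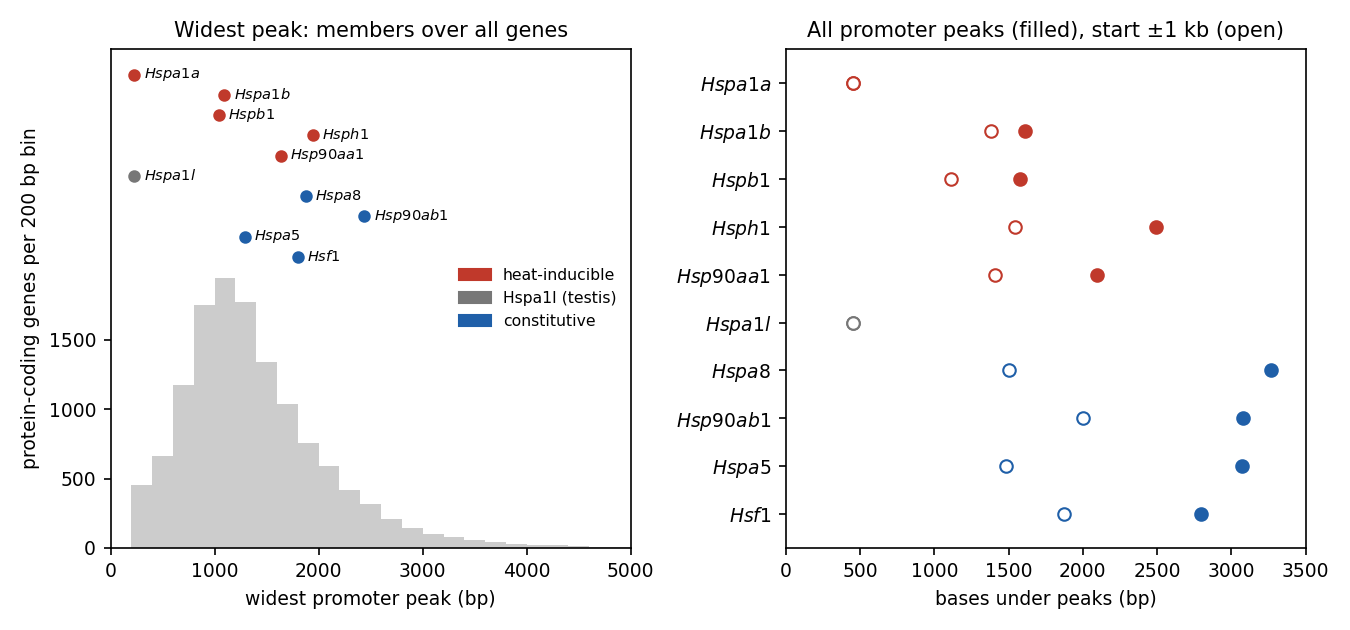
Left, the widest promoter peak in bp of each member (points, stacked for legibility) above the distribution over 12966 protein-coding genes (grey bars, genes per bin of 200 bp, axis ended at 5000 bp). Right, the summed width of all promoter peaks (filled) and the bases under peaks within 1 kb on either side of the reference start (open), which coincide at Hspa1a and Hspa1l. With all transcript starts used, the summed widths of the constitutive members start at 2794 bp, above the 2494 bp of Hsph1, while the open points of the classes overlap. The 2794 bp are those of Hsf1 and include a peak that holds the start of Bop1.

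Set side by side, the widest peaks of the classes overlapped. The median was 1092 bp over the 5 heat-inducible members (228 to 1943 bp) and 1838 bp over the 4 constitutive members (1291 to 2440 bp), beside 1255 bp over all protein-coding genes with a peak, whose quartiles were 908 and 1710 bp. Without Hspa1a and Hspa1b the median of the inducible class was 1636 bp. The summed widths over all transcript starts did not overlap. They were 453 to 2494 bp in the inducible class and 2794 to 3267 bp in the constitutive class, and 9.28% of all protein-coding genes with a peak reached 2794 bp. The lowest constitutive sum, 2794 bp, was that of Hsf1 and included its peak of 997 bp, which holds the start of Bop1. The other peak of Hsf1, of 1797 bp, was below the sums of Hsph1 (2494 bp) and Hsp90aa1 (2095 bp). The separation of the sums also depended on which starts were used. With protein-coding or RefSeq starts only, Hspa5 kept 2 peaks, the wider of 870 bp. With RefSeq starts Hsp90ab1 kept only its peak of 2440 bp, below the 2494 bp of Hsph1, whose 3 peaks remained. When peaks up to 1 kb apart were merged, the widest span was 758 to 2656 bp in the inducible and 2923 to 4389 bp in the constitutive class. The span of 2923 bp was that of Hsf1, with the peak at the start of Bop1 included.

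A gene with more annotated starts has a larger window in which peaks are summed. The number of starts was 1, 1, 2, 9 and 8 in Hspa1a, Hspa1b, Hspb1, Hsph1 and Hsp90aa1, and 9, 6, 6 and 13 in Hspa8, Hsp90ab1, Hspa5 and Hsf1. Of the classed members, Hspa1a, Hspa1b and Hspb1 had the fewest starts and the lowest sums, 453, 1610 and 1576 bp. Within the constitutive class Hsf1, with 13 starts, had the lowest sum. The part of the number of starts in these sums was not tested. With 1 reference start per gene the classes overlapped again. The bases under peaks within 1 kb on either side were 453 to 1545 bp in the inducible class (median 1383 bp) and 1486 to 2000 bp in the constitutive class (median 1686 bp), beside a median of 1249 bp over all genes with a peak. The classes hold 5 and 4 genes chosen by name, genes are not replicates, and no test of this difference was made.

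Peaks were then compared before and after the start. The 1 kb after the start held more bases under peaks than the 1 kb before it in 7 of 10 members, beside 77.8% of all protein-coding genes with a peak, so the members' share was close to that of all genes. The exceptions were Hspa1b, with 870 bp before and 513 bp after, Hspa1l, with 453 bp before and 0 bp after, and Hsp90ab1, with all 1000 bp on both sides. Hspa1a had 225 bp before and 228 bp after. Hsph1 and Hsp90aa1 had 551 and 459 bp before, and 994 and 950 bp after.

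**Figure D4:**
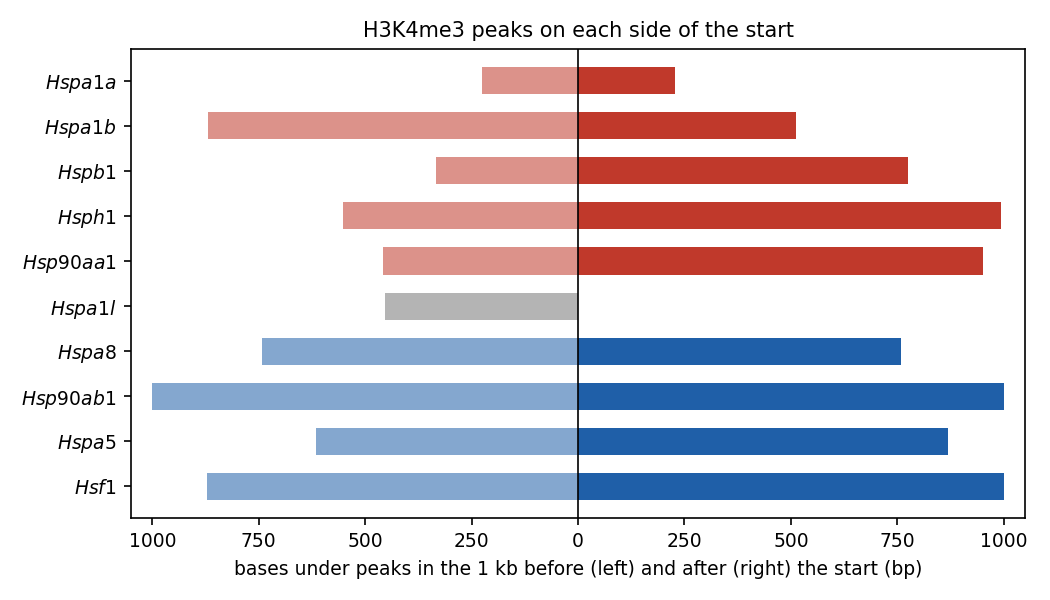
Bases under H3K4me3 peaks in the 1 kb before (left, light) and after (right, dark) the reference start of each member, with heat-inducible genes in red, Hspa1l in grey and constitutive genes in blue. Hsp90ab1 is covered over 1000 bp on both sides, Hspa1a over 225 and 228 bp, and Hspa1l over 0 bp after its start.

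A promoter peak was shared with a protein-coding neighbour at 3 of 10 members, beside 22.2% of protein-coding genes with a peak. These were Hspa1a and Hspa1l, which shared with each other, and Hsf1. The neighbour of Hsf1 was Bop1, a gene of ribosome production on the opposite strand, whose closest start lay 145 bp away. Both peaks of Hsf1 were within reach of Bop1. The 997 bp peak held the start of Bop1 at position 76477277, and the 1797 bp peak held the reference start of Hsf1. With genes of any kind counted, 4 of 10 members shared a peak, beside 36.8%. The added member was Hspa8, which contains the snoRNA genes Snord14c, Snord14d and Snord14e, on the same strand as Hspa8. In all these cases peak positions cannot tell apart the mark of a gene from that of its neighbour.

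CpG islands, stretches rich in CpG, overlapped a promoter peak at 10 of 10 members, beside 89.0% of protein-coding genes with a peak. In the 250 bases before the start the GC content was 63.2% at Hspa1a, 63.6% at Hspa1b, 62.4% at Hspa5 and 59.2% at Hspb1, while it was 49.6% at Hspa1l. The number of CpGs there was 14, 15, 22, 12 and 9 in the same order.

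Putative enhancers were defined by the authors from H3K4me1, H3K27ac and open chromatin in control cells, with regions at known promoters left out. By the GENCODE starts used here, some still lay within 1 kb of a start. Within 50 kb of a start, 9 of 10 members had at least 1, beside 58.7% of all protein-coding genes, with or without a promoter peak. The exception was Hsf1. Together the members had 29 different enhancers, or 26 without those centred within 1 kb of a start. Hsph1 had 7, Hsp90ab1 6, Hspa8 and Hspa5 5 each, Hsp90aa1 3, Hspa1b 2, and Hspa1a, Hspa1l and Hspb1 1 each. The median was 2 in the heat-inducible class and 5 in the constitutive class, beside 2 over all protein-coding genes with a peak, and the ranges of the classes overlapped. Hsf1 had 9 other H3K4me3 peaks within 50 kb. The marks by which the enhancers were defined were not examined there.

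A single enhancer at chr17:34967467-34968169, 703 bp wide, lay between Hspa1b and Hspa1a. It was 8229 bp upstream of the start of Hspa1b, 3987 bp from that of Hspa1a on the downstream side, beyond the end of the gene, and 4534 bp upstream of that of Hspa1l. The closest start of a gene annotated as protein-coding was that of Gm20481, at 2094 bp from its centre. The second enhancer of Hspa1b lay 43185 bp away in Slc44a4, a choline transporter gene.

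Hsp90aa1 had the closest enhancer, 379 bp from the start of its longest transcript at the upstream side. This was 6712 bp from the reference start, where the peaks lay. Its 3 enhancers were 379, 3850 and 4371 bp from the nearest start. Hspa5 had 2 enhancers just upstream, 1337 and 1704 bp from the start, and the first of them overlapped an H3K4me3 peak that was not a promoter peak. Of the other 3, that at 17214 bp lay in Gapvd1 with its centre 191.5 bp from a start of that gene, and that at 26980 bp was closest to Rabepk. Over all protein-coding genes with an enhancer within 50 kb the nearest lay at a median of 11540 bp, with quartiles of 3888 and 25889 bp.

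Hspa8 had 1 enhancer within its own gene, 2232 bp from its nearest start, while the other 4 lay in Clmp, which encodes a cell adhesion protein, at 32348 to 43288 bp. Hsp90ab1 had 1 enhancer 2145 bp from its nearest start, in Slc35b2, and 1 at 10936 bp in Slc29a1, a nucleoside transporter gene. Its other 4 lay at 36971 to 46128 bp and were closest to Mymx. Hspb1 had 1 enhancer of 957 bp, 7638 bp upstream. Hsph1 had 1 within its own gene, 1 at 5150 bp upstream, and 5 downstream at 5786 to 49558 bp from its nearest start, of which 4 lay in Wdr95. None of these positions says which gene an enhancer acts on.

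**Figure D5:**
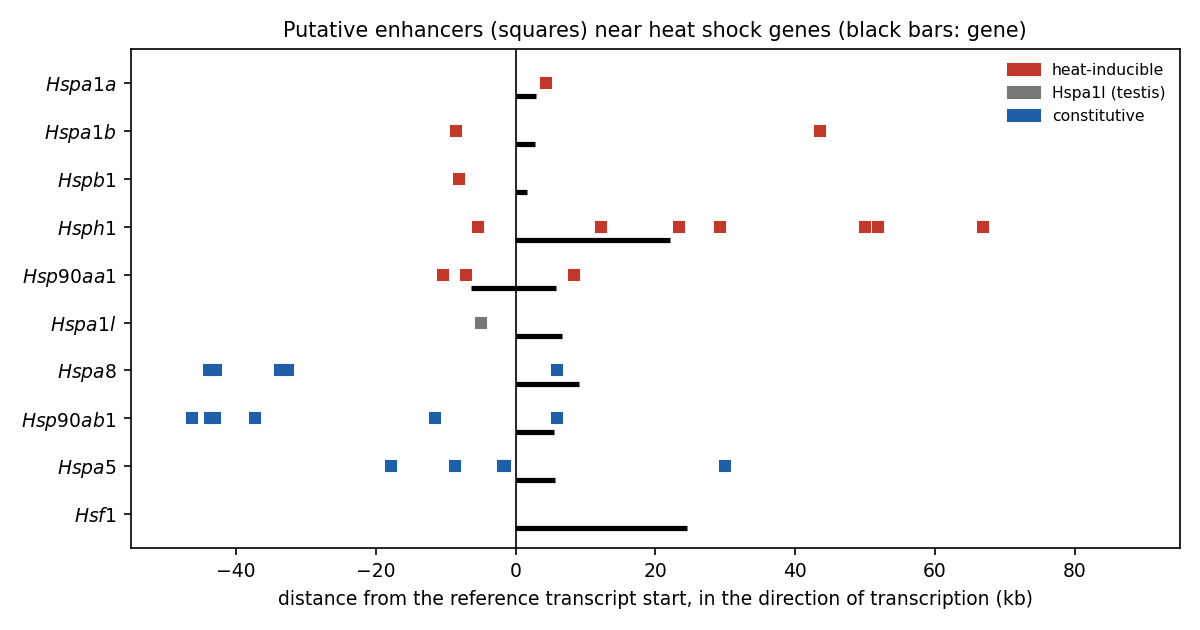
Putative enhancers (squares, at their centres) within 50 kb of any start of each member, by distance in kb from the reference start with transcription to the right. Black bars show the extent of the gene, and enhancers of Hsph1 beyond 50 kb are within 50 kb of another of its starts. Hsph1 has 7 and Hsf1 has 0.

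Finally, 56 related genes of the chaperone and stress response systems were examined. Of these, 49 had a promoter peak (87.5%), beside 59.1% of all protein-coding genes. Their median widest peak was 1245 bp, close to the 1255 bp of all genes with a peak. The J-domain partners, which bring substrates to HSP70, had a peak in 13 of 13, the widest at Dnajb4 (2521 bp). The cochaperones had a peak in 11 of 11, the widest at Cdc37 (1900 bp), which delivers kinases to HSP90, and chaperones of the endoplasmic reticulum in 6 of 6. The widest peak of the whole list was that of Serpinh1, a collagen chaperone, with 3483 bp. The mitochondrial chaperonin genes Hspd1 and Hspe1 shared a peak of 1544 bp with each other, and both HSP90 relatives had a peak, with Hsp90b1 at 1571 bp.

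The genes without a peak fell in the other groups. Of 9 genes listed here under small heat shock proteins, 5 had a peak, the widest at Hspb11 (2692 bp, shared with Lrrc42). Hspb3, Hspb7, Hspb9 and the lens crystallin gene Cryaa had none. Hspb2 and Cryab shared a peak of 544 bp. Of 9 HSP70 and HSP110 relatives, 8 had a peak, the widest at Hspa9 (1639 bp), and Hspa4l had none. Among heat shock factors and regulators Hsf2 and Hsbp1 had a peak, of 808 and 1133 bp, and Hsf4 and Hsf5 had none. The reference start lay between 2 peaks in 15 of the 49, including Dnaja1, Dnajb1, Bag3, Hspa4 and Calr. Beside this stand the 8.6% of protein-coding genes with a peak given above and 6 of the 10 heat shock genes.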

How the data were processed

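H3K4me3 ChIP-seq was analysed from 2 deposited lists. By their methods, the authors passed reads through Trim Galore, mapped them with BWA to mm10 (GRCm38.p6), filtered with SAMtools, merged replicates using Picard and ran MACS for narrow peaks. Thresholds are not given in the sources used here. The deposited values are positions in bp, in other words no count, signal or score, with 0 columns per sample, so depth and precision are unknown. The 10 members and all gene lists were chosen with earlier results of these data known.

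Starts in the peak list were taken to count from 0, since end minus start was never below 200, and those in the enhancer list from 1. If either choice is wrong, starts are off by 1 base. All positions printed count from 1. Of the peaks, 25357 lay on the 21 chromosomes. Starts came from GENCODE M21, with all transcripts used for peaks, for enhancers and for the shares of exons and introns. The reference start was that of the transcript ranked first by APPRIS principal and CCDS tags, then coding type and support level. CpG islands were segments over 200 bp with GC over 50% and observed to expected CpG over 0.6, found by scoring 17 per CpG and -1 per other base, which gave 16937. Peak groups, medians and shares are counts without a test. Genes named besides members were those sharing a peak, those holding or nearest to an enhancer, and, of the related list, those without a peak and the widest per group. The names Dnaja1, Dnajb1, Bag3, Hspa4, Calr, Hspb2, Cryab, Lrrc42 and Hsf2 were added after their values were seen, as were the rules on starts between peaks, the bases under peaks near the reference start, and the median without Hspa1a and Hspa1b. Interval, word and island functions were tested on simulated data. Python 3.11.15, NumPy 2.4.6, SciPy 1.17.1, Numba 0.67.0 and Matplotlib 3.10.9 were used.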

Additional observations from a re-analysis of the deposited data

How the results depend on the processing

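Replicate error could not be computed, and no paired analysis was possible because neither list separates libraries. Across 68 alternatives, 58 values stayed within 1.5 times the value reported, or within its counting interval for the share of repeated words. The median widest peak was higher in the constitutive than in the heat-inducible class under all 14 alternatives that bear on it. Several of these left both medians unchanged at 1092 and 1838 bp, so they were not separate checks. Without Hspa1a and Hspa1b the inducible median was 1636 bp, closer to the constitutive 1838 bp. With a minimum width of 500 bp, 8 members had a promoter peak and 1 shared it with a protein-coding neighbour, since both peaks of Hspa1a and Hspa1l fell away. Merging peaks within 1 kb moved the medians to 1819 bp (heat-inducible) and 3816 bp (constitutive), and summed widths gave 3072 bp for the constitutive class. With only the 5′ end of the gene as its start, 9 members had a peak. The exception was Hsp90aa1, whose peaks lie at the reference start of shorter transcripts. Enhancers numbered 13 within 10 kb, 16 within 25 kb and 48 within 100 kb of a start. A run of 3 heat shock units left 1 member, while 1000 bases on each side of the start gave a match in all 6 members with a promoter, now with Hspa1l and Hspa5, beside 65.4% of protein-coding genes at this width. The members without a RefSeq promoter are not given at this width. The share of repeated words over all member peaks, 7.68% with 75 bases, was 10.7% with 50 bases, and 15.9% when patches and alternate loci were searched too, an alternative chosen after seeing the data.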
